A study of Mus musculus with 2 samples.

Results

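A group of 10 genes whose messages accumulate in the growing mouse oocyte was followed between 2 ages: Oosp1, Omt2a, Omt2b, Oas1d, Oog1, Tcl1, Tcl1b1, Tcl1b2, Tcl1b3 and Tcl1b4. They were picked by symbol, with their levels and ratios in these libraries already known, so their values are a description and no test was made of them. Counts were matched by Ensembl ID for 9 of the 10, out of 18364 genes with counts among 36227 rows. Oog1 had no row matched by its ID and has no value here. RNA came from ICR mice, as naturally ovulated oocytes arrested in the second metaphase of meiosis (MII). The young library was made from oocytes of females aged 3 months and the aged library from females aged 12 months. Each library was 1 pool of 18 oocytes, 3 from each of 6 females, with no genotype or treatment other than age named. There was 1 library per age, so no difference has a replicate check. Ratios divide the aged by the young level, each as a share of its library's total counts, with 95% exact intervals that cover counting error only.

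These genes belong to a few small families that are active in the female germ line. Oosp1 encodes a secreted protein of the oocyte related to the placental protein Plac1. Omt2a and Omt2b encode short proteins named for oocyte maturation, and little is known of what they do. Oas1d is a member of the oligoadenylate synthetase family, known from the antiviral interferon response, that is made in oocytes and has lost the synthetase activity. Oog1, or oogenesin, is a leucine-rich repeat protein of the Prame family. Tcl1 binds the Akt kinases and raises their activity, is a proto-oncogene in T cells, and is a maternal factor for the first cleavages of the mouse embryo. The Tcl1b genes are its relatives in a cluster on the same chromosome, which has expanded in the mouse. An MII oocyte makes almost no new RNA, and its store of messages was laid down during growth.

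Counts totalled 19475110 for the young females and 18597656 for the aged ones, and 16317 and 16406 genes had a count. A count of 0 allowed up to 0.154 CPM (a gene's counts rescaled to libraries of equal total) in the young pool and 0.161 CPM in the aged one, and the smallest count of a measured member was 2820. All 10 oocyte markers that had a row had counts in both libraries, with a summed level of 166505 CPM against 94089 CPM. Most of that gap lay in Gdf9 (97099 and 42795 CPM) and H1foo (53502 and 39296 CPM). Zar1, Nlrp5 and Zp3 had higher levels in the aged library. Markers of cumulus and granulosa cells summed to 26.6 CPM in the young pool and 63.6 CPM in the aged one, 9 of 14 having any count. Most of that was Cyp19a1, the aromatase gene, with 436 and 1056 counts. Cyp11a1 had 27 and 1 counts and Inha 14 and 0, against that direction. Amh, Foxl2, Lhcgr, Inhba and Star had no count. Their part in the results was not tested. Levels are shares of a library, so less of a message per oocyte and fewer oocytes holding it cannot be told apart. Nor can either be told apart from a rise of other messages in the same library. Reverse transcription was primed with oligo(dT), and the length of the poly(A) tails was not measured.

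Together the 9 genes took 7.06% of all counts in the young pool (exact 95% interval 7.04% to 7.07%) and 3.72% in the aged library (3.71% to 3.73%). Their summed share was 1.90-fold lower with age. The 100 most abundant genes as a whole went from 50.4% to 39.6% of counts, a share 1.27-fold lower. In the young library 3 of the 9 were among the 10 most abundant genes, namely Tcl1, Oosp1 and Omt2b, and in the aged library only Tcl1 was. Of the 9, 6 were among the 100 most abundant genes of the young library and 5 among those of the aged one, Omt2a having moved from rank 56 to rank 109.

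**Figure D1:**
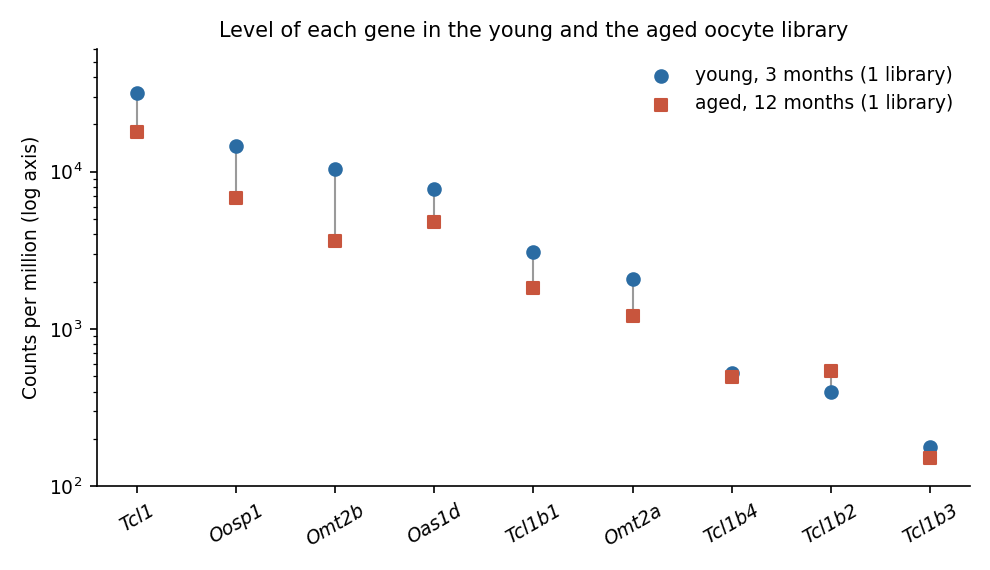
CPM (log axis) of the 9 genes with counts, ordered by their level in the young library; circles are the young library, squares the aged library, and each is 1 library with no replicate. The aged level lies below the young one for 8 genes and above it for Tcl1b2, and the widest gap is that of Omt2b, from 10413 to 3599 CPM.

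Of the 9 genes, 8 had a lower share in the aged library, beside 33.6% of all 10211 genes whose counts averaged 20 or more and 58.4% of the 173 genes that reached 1000 CPM in either library. Oosp1 and Omt2b, 2 of the 9, were at least 2-fold lower, beside 10.6% of all genes and 14.5% of the abundant ones. For the same 2 genes the whole counting interval lay beyond 2-fold, beside 6.35% and 13.9%. None was higher by that factor, beside 27.9% and 16.8%. Since the ratios were known when the genes were picked, nothing further is read from these counts. The median log2 ratio of the 9 was −0.77, against 0.43 over all genes and −0.15 over the abundant genes. The scaling mattered to the size. Relative to the median gene the median of the 9 was −1.20 and 6 genes were at least 2-fold lower, beside 17.3% of all genes and 31.8% of the abundant ones. TMM scaling, which trims genes with extreme ratios before it sets the scale, also gave 6 such genes, beside 16.3% and 28.9%. Library totals without the 100 most abundant genes gave 5, beside 14.6% and 25.4%. No gene of the 9 was at least 2-fold higher relative to the median gene, beside 16.0% and 8.67%. The 2-fold line fell close to several members. Oosp1, at 2.13-fold, lay just inside it, and Tcl1, at 1.78-fold, just outside.

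**Figure D2:**
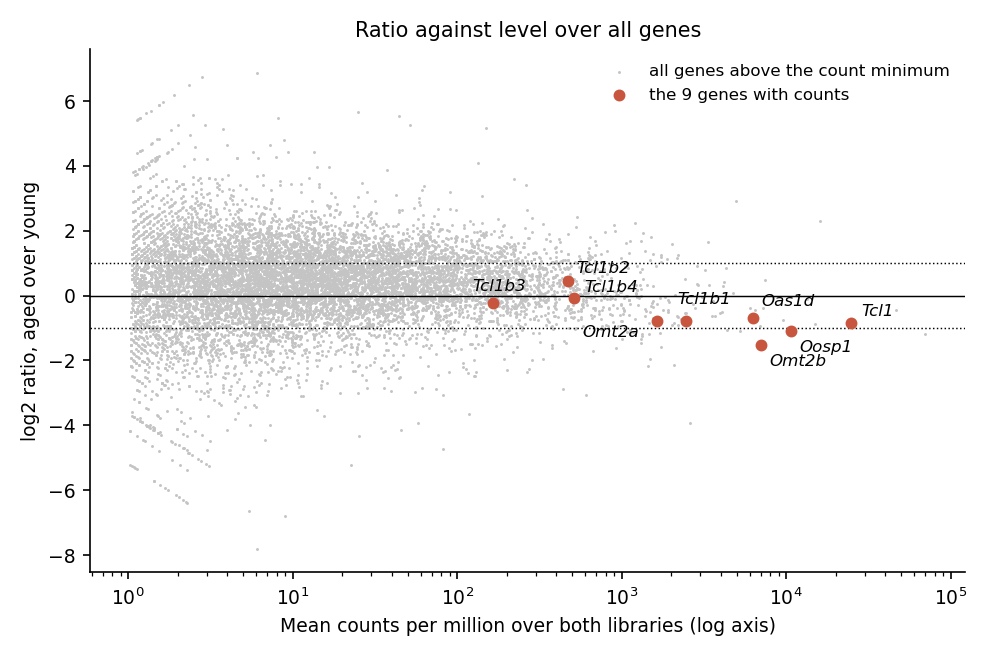
Log2 ratio of aged over young against the mean CPM of both libraries (log axis) for all 10211 genes above the count minimum (grey) and the 9 genes with counts (orange); the dotted lines mark 2-fold. The median of all genes is 0.43, and 6 of the 9 genes lie at the far right, below 0.

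**Figure D3:**
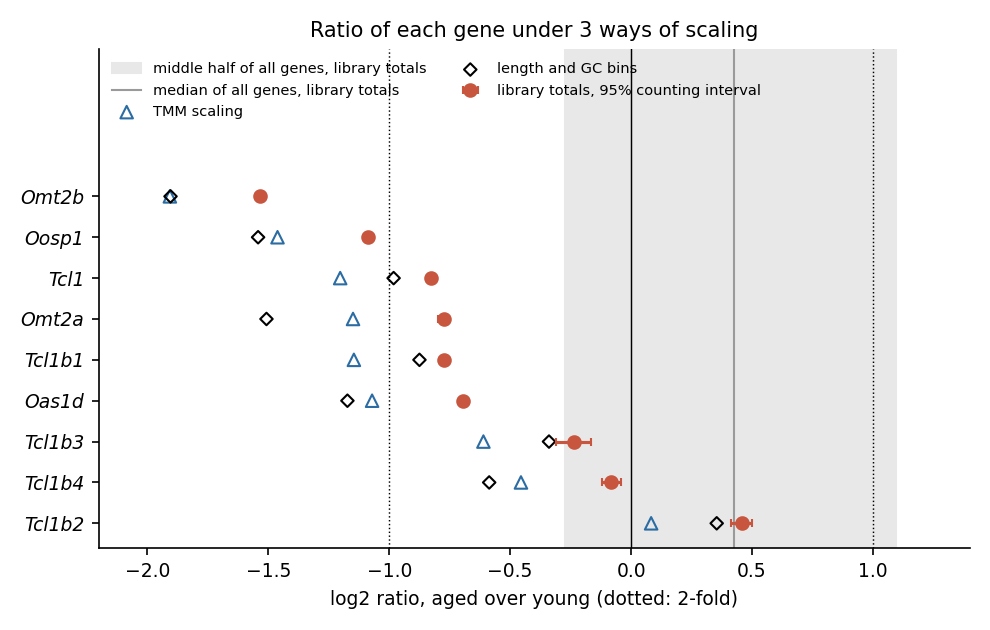
Log2 ratio of aged over young for each of the 9 genes with library totals (circles, bars for the 95% counting interval), TMM scaling (triangles) and after correction by bins of transcript length and GC content (diamonds); the grey band spans the quartiles of all genes, −0.28 to 1.09. Under each of the 3 scalings Omt2b is lowest, at −1.53 with library totals, and Tcl1b2 is highest. Tcl1b2 stands at 0.46 with library totals, 0.08 with TMM and 0.35 after the correction by bins.

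Oosp1 (ENSMUSG00000041857, chromosome 19) had 283371 counts in the young library, or 14550 CPM, and 127322 in the aged library, or 6846 CPM. It was the fifth most abundant gene of the young library and ranked 11 in the aged one. The level was 2.13-fold lower with age (2.11 to 2.14), a log2 ratio of −1.09. Of the genes above the count minimum, 983 had a lower ratio, 20 of them among the 173 abundant genes. None of the 35-base stretches of its transcript occurs in the annotated transcripts of another gene. Near matches and copies outside the annotation were not searched.

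The relatives of Oosp1 lie on either side of it on chromosome 19 and had other ratios. Oosp2, a secreted protein of the same family, had 2251 counts (116 CPM) in the young pool and 8461 (455 CPM) in the aged one, 3.94-fold higher (3.76 to 4.13). Oosp3 had 23027 and 23391 counts and was 1.06-fold higher (1.04 to 1.08), but lower relative to the median gene, at a log2 ratio of −0.34. Oosp1 thus outnumbered Oosp2 126 to 1 in the young pool and 15.0 to 1 in the aged one. That ratio does not depend on how the libraries are scaled, and it was 8.37-fold smaller in the aged library. Within the counts of the 3 Oosp genes, Oosp1 took 91.8% and then 79.99%, Oosp3 7.46% and then 14.7%, and Oosp2 0.729% and then 5.32%. Plac1, with 35 and 45 counts, was 1.35-fold higher, with an interval (0.846 to 2.16) that includes equality. Of the 4 listed genes of this family above the minimum, 1 passed 2-fold upward and 1 downward, beside 27.9% and 10.6% of all genes. The downward one was Oosp1 itself. The median log2 ratio of the 4 was 0.26, beside 0.43 over all genes.

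Omt2b (ENSMUSG00000038750, chromosome 9) was the member furthest apart between the libraries, with 202794 counts (10413 CPM) in the young one and 66932 (3599 CPM) in the aged one. It went from rank 8 to rank 25 and was 2.89-fold lower (2.87 to 2.92), a log2 ratio of −1.53. Only 8 of the 173 abundant genes, and 601 of all 10211, had a lower ratio. Omt2a (ENSMUSG00000066463, chromosome 9), its close copy, had 40231 counts (2066 CPM) and 22443 counts (1207 CPM), 1.71-fold lower (1.68 to 1.74). Both were lower in the aged library, Omt2b by more. Omt2b outnumbered Omt2a 5.04 to 1 in the young pool and 2.98 to 1 in the aged one, a log2 difference of −0.76 with a counting interval from −0.78 to −0.73. Its share of the pair's counts was 83.4% and then 74.9%, and per kilobase of transcript 88.9% and then 82.6%.

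The copies of the Omt2 pair share much of their sequence. Of the 35-base stretches of the Omt2b transcript 56.8% also occur in Omt2a, and 34.95% of those of Omt2a occur in Omt2b. The sources used here do not say how reads from shared sequence were counted, so the split between the copies is uncertain. The genes lie near each other on opposite strands. Ooep, a subunit of the subcortical maternal complex that lies 3 genes from Omt2b, was lower by a like factor, with 13155 and 4576 counts (2.75-fold, 2.65 to 2.84). Dppa5a, between them, had 33 and 25 counts, and Gsta2 had 3 and 0.

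Tcl1 (ENSMUSG00000041359, chromosome 12) was the most abundant of the 9 genes in both libraries. It had 615061 counts (31582 CPM, rank 3) in the young pool and 330729 (17783 CPM, rank 4) in the aged one. The level was 1.78-fold lower with age (1.77 to 1.78), a log2 ratio of −0.83, and 34 of the 173 abundant genes had a lower ratio. Its transcript shares no 35-base stretch with the annotated transcripts of another gene. Per kilobase of transcript the order of the 9 genes was the same in both libraries. Tcl1 stood first, with 22591 CPM per kilobase in the young pool and 12721 in the aged one. Oosp1 followed with 14970 and 7043, and Omt2b with 14167 and 4897. Oas1d had 3839 and 2369, and Tcl1b1 2974 and 1741. Omt2a had 1770 and 1034 CPM per kilobase. Tcl1b2, Tcl1b4 and Tcl1b3 closed the order, with 393, 358 and 171 CPM per kilobase in the young one and 539, 339 and 145 in the aged one. Neighbours in this order, such as Oosp1 and Omt2b, have no replicate spread to be set against, and the values depend on the transcript length taken.

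The Tcl1b genes divided. Tcl1b1 (ENSMUSG00000066359) had 60230 counts (3093 CPM) and 33682 (1811 CPM), 1.71-fold lower (1.68 to 1.73), close to Tcl1 itself. The ratio of Tcl1 to Tcl1b1 was 10.2 in the young pool and 9.82 in the aged one, a log2 difference of −0.06. Tcl1b2 (ENSMUSG00000060863) was the member with a higher share in the aged library, with 7720 counts (396 CPM) and 10119 (544 CPM), 1.37-fold higher (1.33 to 1.41). Relative to the median gene its log2 ratio was 0.03. Tcl1b3 (ENSMUSG00000068940) had 3479 and 2820 counts and was 1.18-fold lower (1.12 to 1.24). Tcl1b4 (ENSMUSG00000079007) had 10220 and 9225 counts and was 1.06-fold lower (1.03 to 1.09).

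Within the 5 Tcl1b genes, which include Tcl1b5 with 2063 and 1611 counts, the share of Tcl1b1 was 71.9% of counts in the young pool and 58.6% in the aged one. The share of Tcl1b2 was 9.22% and then 17.6%. The ratio of Tcl1b1 to Tcl1b2 was 7.80 and then 3.33, a log2 difference of −1.23 (−1.28 to −1.18). Shared sequence limits this split too. Of the 35-base stretches, 26.0% in Tcl1b1, 40.3% in Tcl1b2, 44.3% in Tcl1b3 and 9.22% in Tcl1b4 also occur in another gene, each time within the cluster. Tcl1 took 88.0% of the counts of the whole cluster in the young pool and 85.2% in the aged one. Along the chromosome the order is Tcl1b2, Tcl1b1, Tcl1b5, Tcl1b3, Tcl1b4 and then Tcl1 on the other strand, so the genes with the lowest log2 ratios, Tcl1 and Tcl1b1, are not side by side.

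**Figure D4:**
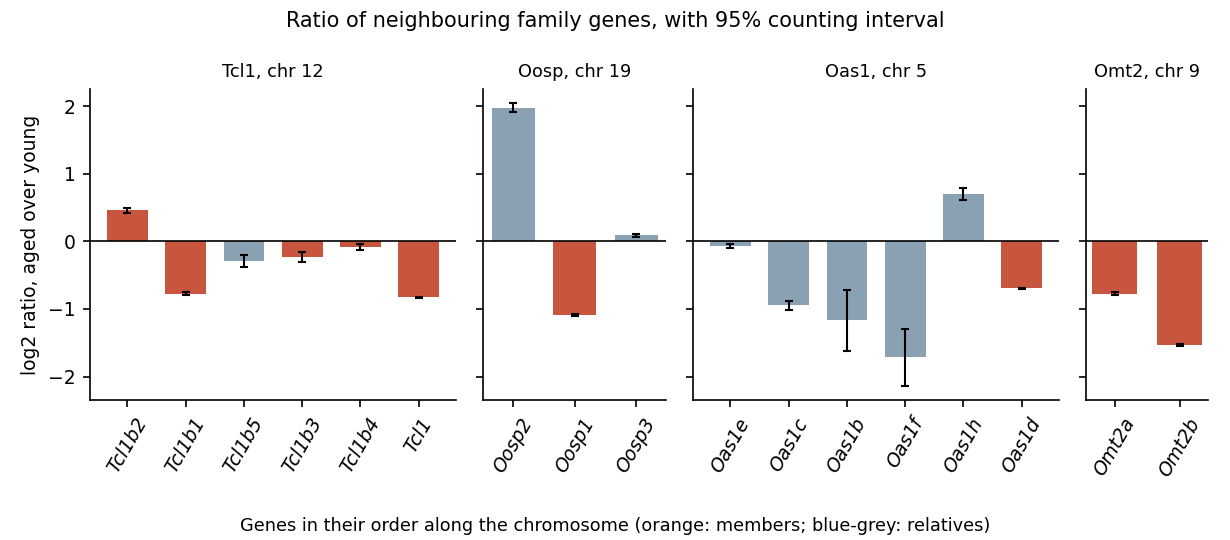
Log2 ratio of aged over young, with 95% counting intervals, for the genes of each family above the count minimum, in their order along the chromosome; orange bars are the 9 genes and blue-grey bars their relatives. Oosp2, at 1.98, stands beside Oosp1, at −1.09, and Tcl1b2, at 0.46, beside Tcl1b1, at −0.77.

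Akt1, a kinase that Tcl1 proteins bind, had 12133 and 7368 counts and was 1.57-fold lower (1.53 to 1.62). Akt2 had 670 and 552 counts. Mtcp1, another Tcl1 relative, had 899 and 941 counts. With library totals none of the 7 genes of the Tcl1 family list was 2-fold apart, beside 10.6% of all genes lower and 27.9% higher, and their median log2 ratio was −0.24. Set against the median gene, Tcl1 and Tcl1b1, 2 of the 7, were at least 2-fold lower, beside 17.3%.

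Oas1d (ENSMUSG00000032623, chromosome 5) had 151113 counts (7759 CPM, rank 12) in the young pool and 89032 (4787 CPM, rank 18) in the aged one. It was 1.62-fold lower (1.61 to 1.63), a log2 ratio of −0.70, and 44 of the 173 abundant genes had a lower ratio. It made up 88.0% of the counts of the Oas1 genes in the young pool and 83.7% in the aged one. Of its 35-base stretches 18.1% occur in another gene, most often in Oas1c. Oas1c had 5409 and 2681 counts, 1.93-fold lower (1.84 to 2.02), and Oas1e had 13019 and 11846, 1.05-fold lower (1.02 to 1.08). Oas1h had 1729 and 2671 counts and was 1.62-fold higher (1.52 to 1.72).

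The other Oas genes were rare. Oas1f had 216 and 63 counts, 3.27-fold lower (2.46 to 4.41), and Oas1b had 143 and 61, 2.24-fold lower (1.65 to 3.07). Oasl1 had 41 and 8 counts, 4.89-fold lower with a wide interval (2.27 to 12.1). Oas1a, the interferon-induced enzyme, had no counts. Of the 7 genes of this list above the minimum 3 were at least 2-fold lower and none higher, beside 10.6% and 27.9% of all genes, with a median log2 ratio of −0.95. Set against the median gene, 5 of them were lower by that factor, beside 17.3%. Interferon-stimulated genes were near the limit of detection, and only 2 of 14 passed the minimum. Ddx58, which encodes an RNA sensor, had 26 and 141 counts, 5.68-fold higher (3.72 to 8.99), and Stat2 had 65 and 95.

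**Figure D5:**
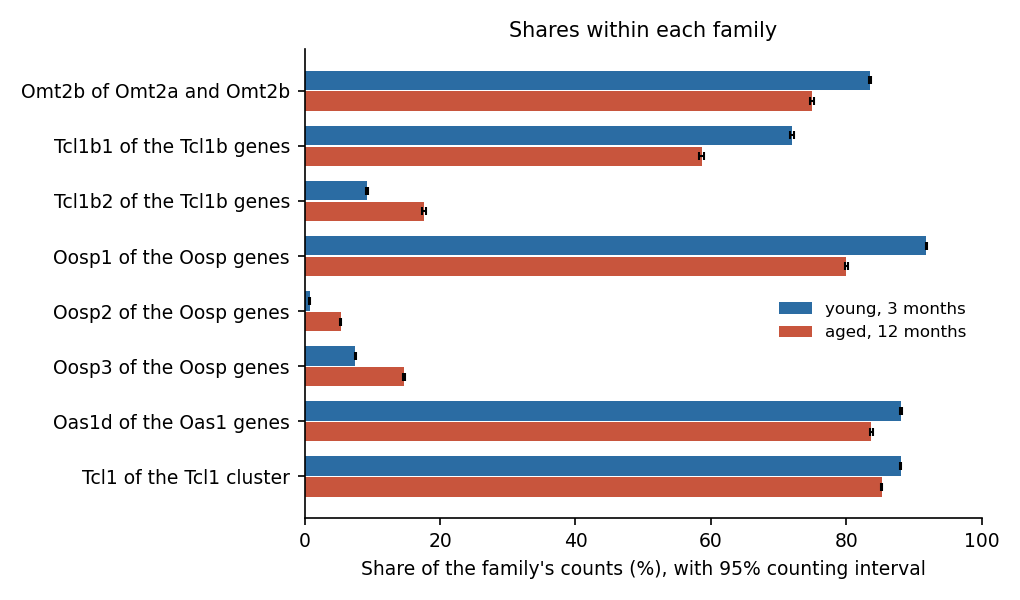
Share of a gene in the counts of its family in the young (blue) and aged (orange) library, with exact 95% counting intervals. The leading gene of each family holds a smaller share in the aged library, the gap being 91.8% to 79.99% for Oosp1 and 71.9% to 58.6% for Tcl1b1.

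Oog1 has no value of its own here. Of the 35-base stretches of its annotated transcript 92.2% also occur in another gene, and 88.9% occur in Gm2042. Its relatives Oog2 and Oog4 had higher levels in the aged library, unlike the 8 lower members. Oog2 had 232 and 761 counts, 3.43-fold higher (2.96 to 3.996), and Oog4 had 1067 and 1933, 1.90-fold higher. Oog3, the most abundant of them by counts, had 49798 and 59763 and was 1.26-fold higher (1.24 to 1.27), but −0.10 on the log2 scale relative to the median gene. Shared sequence limits these values too. Of the 35-base stretches, 53.8% in Oog2, 25.1% in Oog3 and 1.75% in Oog4 also occur in another gene. C87499 and C87977, of the Prame-like genes, were 2.37-fold and 2.12-fold higher. Of the 10 listed genes above the minimum, 4 passed 2-fold upward and none downward, beside 27.9% and 10.6% of all genes. Relative to the median gene 1 was higher by that factor, beside 16.0%, and none was lower, beside 17.3%.

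Other oocyte genes differed in direction. Both growth factor genes were lower, Gdf9, the most abundant gene of both libraries, by 2.27-fold and Bmp15 by 1.48-fold, with a median log2 ratio of −0.87 beside −0.77 for the 9 genes. The zona pellucida genes had a median log2 ratio of −0.55, with Zp1 2.22-fold lower and Zp3 1.09-fold higher, or −0.30 on the log2 scale relative to the median gene. Of the subcortical maternal complex 2 of 6 genes were at least 2-fold higher, namely Nlrp2 and Nlrp5, and 1 was lower, Ooep, beside 27.9% and 10.6% of all genes, with a median of −0.21. Set against the median gene, 1 was higher and 2 were lower, beside 16.0% and 17.3%. No test of a difference between these lists and the 9 genes is possible with 1 library per age. The genes nearest in level over both libraries were Slc45a3 for Oosp1 (12037 and 7082 CPM, a distance of 0.28 in log2 CPM), Mos for Omt2b (9142 and 4730 CPM, 0.44) and Bcl2l10 for Tcl1 (19207 and 10474 CPM, 1.05).

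The promoters are shown because members of one family had different ratios. RefSeq promoter windows (assembly GRCm38.p6, another build than that of the counts) were found for 9 of the 10 genes, all but Oas1d. The windows of 5 are printed, each the 250 bases before the annotated start, read 5′ to 3′ on the gene's strand. They are Oosp1 at chr19:11691052-11691301 (minus strand), Omt2a at chr9:78314049-78314298 (minus strand), Omt2b at chr9:78327780-78328029 (plus strand), Tcl1b1 at chr12:105159454-105159703 (plus strand) and Tcl1b2 at chr12:105146769-105147018 (plus strand). Capitals mark CACCTG on either strand, where its reverse complement reads CAGGTG.
Oosp1: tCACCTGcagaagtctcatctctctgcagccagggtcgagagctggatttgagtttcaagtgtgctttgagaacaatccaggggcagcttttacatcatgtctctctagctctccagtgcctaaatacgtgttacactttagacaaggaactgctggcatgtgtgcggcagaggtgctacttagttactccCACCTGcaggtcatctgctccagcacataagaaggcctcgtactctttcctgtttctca
Omt2a: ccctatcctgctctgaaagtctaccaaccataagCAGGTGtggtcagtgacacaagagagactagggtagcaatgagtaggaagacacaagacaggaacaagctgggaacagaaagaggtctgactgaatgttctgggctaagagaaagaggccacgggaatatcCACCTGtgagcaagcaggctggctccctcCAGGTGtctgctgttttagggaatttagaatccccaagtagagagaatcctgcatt
Omt2b: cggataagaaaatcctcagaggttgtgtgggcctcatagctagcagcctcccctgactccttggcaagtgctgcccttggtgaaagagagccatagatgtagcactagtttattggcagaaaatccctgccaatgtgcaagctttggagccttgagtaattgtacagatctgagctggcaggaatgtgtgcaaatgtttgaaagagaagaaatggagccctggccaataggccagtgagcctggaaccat
Tcl1b1: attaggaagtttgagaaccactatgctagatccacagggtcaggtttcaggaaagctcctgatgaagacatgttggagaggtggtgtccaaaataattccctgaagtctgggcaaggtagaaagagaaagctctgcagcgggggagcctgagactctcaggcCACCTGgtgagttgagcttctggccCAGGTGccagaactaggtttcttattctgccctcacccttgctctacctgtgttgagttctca
Tcl1b2: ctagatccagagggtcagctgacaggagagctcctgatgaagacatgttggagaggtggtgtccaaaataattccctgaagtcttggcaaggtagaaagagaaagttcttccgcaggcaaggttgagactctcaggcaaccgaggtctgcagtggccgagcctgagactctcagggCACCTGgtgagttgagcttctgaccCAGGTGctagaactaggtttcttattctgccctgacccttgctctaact
CACCTG is an E-box, the kind of site that helix-loop-helix factors such as Figla bind. It was singled out after these sequences had been seen.

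CACCTG was present in 8 of the 9 windows, all but Omt2b, against 17.2% of 32851 windows of the same length. The 4 Tcl1b windows are 59.6% to 89.4% identical to one another, so they are not separate cases. The wider form CANNTG, of which each CACCTG is an instance, was in 9 of 9, against 66.2%. Oosp1 has CACCTG ending 54 bases and 244 bases before the start, Omt2a 51, 80 and 211 bases before it, and Tcl1 16 bases before it. Tcl1b1 and Tcl1b2 hold a pair of matches in the same arrangement, ending 58 and 83 bases before the start in the first and 44 and 69 in the second. Their windows are 67.8% identical. Any link between the windows and the ratios was not tested. The Omt2a and Omt2b windows are 46.4% identical. Omt2b, without the element, had TAATTG, a homeobox-type site of the kind Nobox binds, at 89 bases, against 7.17% of all windows, and CCAAT at 23, 117 and 135 bases, against 33.8%. TATAAA was in none of the 9, against 12.4%, and TAATTA in none, against 4.84%. A match says only that these letters are in the window.

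Transcription factors of the growing oocyte had low counts. Figla had 206 counts in the young pool and 25 in the aged one, 7.87-fold lower (5.18 to 12.4). Nobox had 712 and 894 counts, 1.31-fold higher but −0.03 on the log2 scale relative to the median gene, and Tbpl2, an oocyte TATA-binding protein, had 93 and 39, 2.28-fold lower (1.55 to 3.40). Of 5 such factors above the minimum 2 were at least 2-fold lower and none higher, beside 10.6% and 27.9% of all genes, with a median log2 ratio of −0.88. Set against the median gene, 3 were lower by that factor, beside 17.3%.

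The 9 transcripts are short, from 735 to 2021 bases against a median of 3063 over all genes, and their GC content runs from 41.98% to 52.1% around a median of 49.7%. After each ratio was reduced by the median of genes of like length and GC content, 4 of the 9 were at least 2-fold lower, beside 14.9% of 9902 genes with a length and 23.7% of 169 abundant ones. These were Omt2b at −1.90, Oosp1 at −1.54, Omt2a at −1.51 and Oas1d at −1.17, while Tcl1 stood at −0.98. A match to a polyadenylation signal, AATAAA or ATTAAA, was found in the last 100 bases of all 10 annotated transcripts, against 83.2% of 9231. In Oosp1 the match nearest the end starts 93 bases from it. The stretches around the match are much alike in Tcl1b1, Tcl1b2, Tcl1b3 and Tcl1b4 and identical in Omt2a and Omt2b. Those genes are not separate cases. TTTTAT, a form of the cytoplasmic polyadenylation element that regulates the tail length of stored messages, was in 4, namely Omt2a, Omt2b, Oog1 and Tcl1, against 15.9%. The stretch around it is identical in Omt2a and Omt2b, so they are not separate cases. TTTTAAT was in none, against 5.84%. Both forms were searched on the transcript strand, after the data had been seen.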

How the data were processed

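RNA of 1 young and 1 aged pool of MII oocytes was compared. Per the labels' protocols, mRNA was reverse transcribed with an oligo(dT) primer, tailed, amplified by PCR without molecular identifiers and sequenced on a SOLiD instrument, and the genome build was mm9 per the submitters' processing notes. Aligner, counter, annotation release, use of strand and the handling of multiply mapping reads were not given in the sources used here. Reads are not independent molecules, and intervals cover counting error only.

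The counts were used as deposited by the authors, whole numbers per gene with no normalization. The authors' deposited log2 fold changes were used for a check: all 9 matched ratios recomputed from the counts within 1e-06. The authors' deposited score, p-value and q-value columns set the reads of 1 library against those of the other, which is no test of age. They were used only for a count of members marked in the authors' deposited table at p below 0.001, which was 9. The share of all genes so marked is not given here, so nothing about the members is read from that count. No column belonged to another sample.

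Symbols came from GENCODE mouse release M21 by Ensembl ID and matched 93.7% of counted rows. Length and GC content are those of the longest coding transcript. That release describes another build, so gene coordinates are left out and chromosomes were taken from the deposited table. Order along the chromosome and strand are from that release. Ratios are the log2 of the aged over the young level, with library totals as the scale. Genes averaging 20 counts or more entered the backgrounds, and a count of 0 was set to 3. Intervals are exact (Clopper-Pearson, 95%) for the part of a gene's counts that came from the aged library, turned into a ratio, and those of a ratio between genes are log-normal. Coverage of the exact intervals, but not of the log-normal ones, was checked on simulated counts. Those counts held counting error only, so the check does not cover PCR copies or the spread between pools. Shared sequence was measured over all 35-base stretches of the annotated transcripts. There being 1 library per age, genes were not tested and are described by a 2-fold rule. Alternatives were TMM scaling, centring on the median gene, other totals, 5 added counts, other count minimums and bins of length and GC content.

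The members, gene lists and motifs were chosen with earlier results of these data known. Named genes are the members, the most changed of each list (up to 3), the members' relatives, the 2 genes nearest in level to Oosp1, Omt2b and Tcl1, and neighbours within 3 genes. Only some of them are described, and some listed genes are not reported here. The planned description of proteins was not made. Python 3.11.15, numpy 2.4.6, pandas 2.3.3, scipy 1.17.1 and matplotlib 3.10.9 were used, with TMM factors from edgeR 4.0.16 in R 4.3.3.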

Additional observations from a re-analysis of the deposited data

How the results depend on the processing

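With library totals 2 of the 9 genes had aged levels at least 2-fold below the young ones. The count was 6 with TMM scaling, 6 relative to the median gene, 5 with totals without the 100 most abundant genes and 4 with bins of length and GC content. It was 2 with totals without the members, with 5 counts added, with no count minimum, with a mean of at least 100 counts and with the interval beyond 2-fold. Under each of the 6 scalings or corrections 8 genes had a ratio below 0 and Tcl1b2 above it, at 0.08 with TMM and 0.03 relative to the median gene. The median of the 9 ran from −1.20 to −0.77. Over all genes 1081 were at least 2-fold lower and 2844 higher. The counts were 1668 and 1757 with TMM, 1766 and 1633 relative to the median gene, 3370 and 5483 with no count minimum, 496 and 1727 with a mean of at least 100 counts, and 648 and 1841 with the interval beyond 2-fold. Bins of length and GC content gave 1475 and 1347, and totals without the 100 most abundant genes 1489 and 1991. Fewer genes are tested under a higher minimum. TMM scaling, centring on the median gene and other totals each shift all genes by one amount. Bins of length and GC content and 5 added counts shift genes by differing amounts. The cause of the other differences was not tested. Per kilobase, the share of Omt2b in its pair was 88.9% and 82.6%, and that of Tcl1 in its cluster 85.0% and 81.7%, in the young and aged library.

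No paired analysis was possible because there is 1 library per age and the labels give no replicate numbers. For the same reason no replicate was left out. Depth limits little here, since the 9 genes had at least 2820 counts each, but the spread between animals and pools is unknown.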
